A study of Mus musculus with 12 samples.

Results

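The clustered protocadherins are cell-surface proteins encoded by 3 gene arrays, alpha, beta and gamma, that lie next to each other on mouse chromosome 18. The genes described here are all annotated genes of the deposited tables whose symbol names an alpha, alpha C-type, beta, gamma A, gamma B or gamma C-type protocadherin. They number 58 of 43346 annotated genes: 12 alpha, 2 alpha C-type, 22 beta, 12 gamma A, 7 gamma B and 3 gamma C-type identifiers. Identifier ENSMUSG00000007440.10 carries the symbol Pcdha11 in the annotation used here, as does ENSMUSG00000102206.1, and it starts where RefSeq places Pcdha10. Below, Pcdha11 means ENSMUSG00000102206.1.

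RNA was measured by Smart-seq in 12 libraries, which form 1 group with no treatment and no control. The material was a homogenate of 13 Purkinje cells, the inhibitory output neurons of the cerebellar cortex, excised from parasagittal tissue of 1 male mouse of strain B6CASTF1/J (Castaneus by C57Bl6 hybrid) aged 14 months. An amount of total RNA above 200 bases that equals 1 cell, plus spike-in RNA, went into each library, and libraries are named by their technical replicate numbers, 1 to 6 and 8 to 13. Every SD and p-value therefore measures the technical spread between splits of 1 pool and nothing about differences between cells or mice.

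In the alpha and gamma arrays each gene has its own promoter and its own large variable exon, which is spliced to 3 constant exons used by every gene of the array, while most beta genes consist of a single exon. The variable exon encodes the cadherin repeats that bind the same isoform on another membrane, and the constant exons encode the cytoplasmic tail. A neuron chooses its alpha, beta, gamma A and gamma B isoforms stochastically from the alternative promoters, through a mechanism that involves CTCF and cohesin, whereas the C-type genes (Pcdhac1, Pcdhac2, Pcdhgc3, Pcdhgc4 and Pcdhgc5) are used more uniformly. In Purkinje cells these proteins are known for dendritic self-avoidance, by which branches of 1 neuron keep apart.

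Between 13694551 and 24108916 estimated counts per library fell in annotated genes, and between 5407 and 8645 genes had 50 or more. No pair of libraries held identical values. The cell type label was checked against markers. All 10 Purkinje markers examined (Pcp2, Pcp4 and Calb1 among them) reached 50 counts in each of the 12 libraries and summed to 17216 to 30541 TPM (a transcript level corrected for length and scaled to the same total in every library). Of all annotated genes 3.72% reached 50 counts in each of the 12 libraries. Transcripts of other cerebellar cells were present as well. The 10 Bergmann glia and astrocyte markers, of which 8 reached 50 counts in each library, summed to 1638 to 3788 TPM, and the 10 granule cell markers, of which 3 did, to 126.3 to 835 TPM. For the 10 interneuron markers (1 in every library, Sst at 0) the range was 83.8 to 714 TPM, most of it from Npy alone (322 ± 188 TPM; SD, n = 12), and the others averaged at most 16.5 TPM. For the 8 oligodendrocyte markers (1 in every library) the range was 91.3 to 378 TPM. None of the 8 microglia or the 8 endothelial and mural markers reached 50 counts in every library: their sums ran from 0 to 462 and from 0 to 290.1 TPM, with Fcer1g, Cldn5, Acta2 and Kdr at 0 throughout. The part of these other cells in the protocadherin levels was not tested.

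The constant exons decide how far a read can be assigned to 1 gene, so they come before the levels. On mm10 the alpha array spans chromosome 18, 36930184 to 37187661, the beta array 37264938 to 37524479 and the gamma array 37661793 to 37841873. The alpha constant exons hold 59, 89 and 2712 bases and belong to all 14 alpha genes, and the gamma constant exons hold 59, 89 and 1968 bases and belong to all 22 gamma genes. Exonic bases that also belong to another gene of the array made up 38.0 to 54.9% of each alpha gene and 27.8 to 66.8% of each gamma gene, but only 0 to 9.7% of each beta gene. The deposited counts followed this division. A gene's count in a library, where above 0, was within 0.02 of a whole number in 53 of 57 cases (93.0%) for beta genes, in 15 of 63 (23.8%) for gamma genes and in 3 of 35 (8.6%) for alpha genes, and the sum over the alpha genes was whole in 12 of 12 libraries. The sum over the beta genes was whole in 12 of 12 libraries too, and the sum over the gamma genes in 9 of 12.

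Summed over all 58 genes, clustered protocadherins reached 297 ± 107 TPM per library (SD, n = 12). The lowest sum was 177.2 TPM, in library 11, and the highest 512 TPM, in library 8. In a pooled lysate more cells with an isoform and more RNA per cell cannot be told apart. The gamma array was the highest, at 187 ± 54.5 TPM, with the alpha array at 67.2 ± 50.4 TPM and the beta array at 43.2 ± 33.8 TPM. As shares of the summed TPM these were 65.5 ± 15.7% gamma, 20.95 ± 10.2% alpha and 13.6 ± 9.86% beta. The summed gamma level ran from 88.9 TPM in library 5 to 265 TPM in library 9. It spread less (coefficient of variation, CV, the SD divided by the mean, 0.292) than the alpha (0.75) and beta sums (0.782). This did not hold without the gene Pcdhgc4: the sum of the other 21 gamma genes had a CV of 1.043, larger than both. The difference between these CVs was not tested. The beta sum ran from 2.02 TPM in library 3 to 110.2 TPM in library 2.

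**Figure D1:**
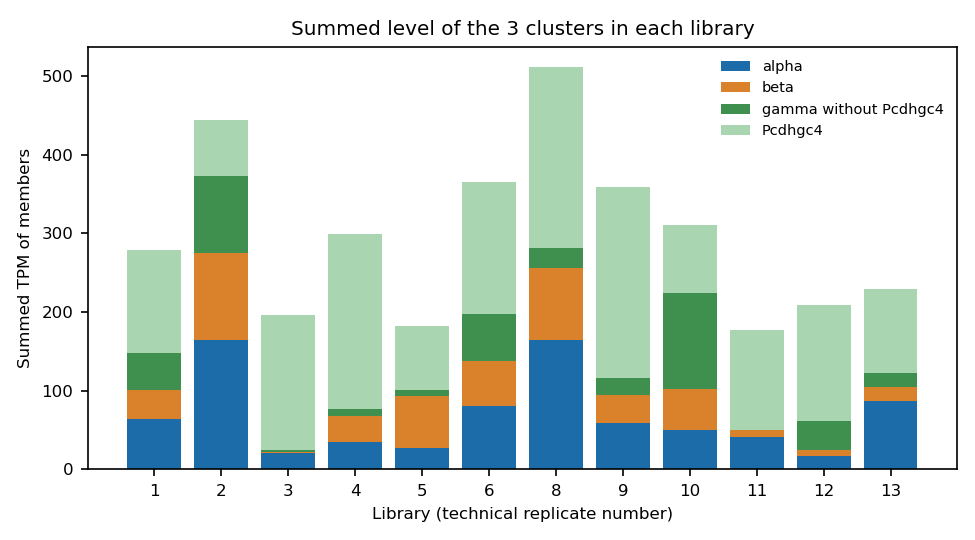
Summed TPM of the alpha, beta and gamma genes in each of the 12 libraries, as stacked bars, with Pcdhgc4 drawn apart from the other gamma genes. Pcdhgc4 was the tallest segment in 10 of 12 libraries. In library 2 it held 16.2% of the total and in library 3 it held 87.6%.

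The gamma level and the C-type level were mostly 1 gene. C-type genes summed to 186 ± 56.6 TPM and the other 53 genes to 112 ± 77.0 TPM (SD, n = 12), so C-type genes held 64.7 ± 14.2% of the total. Pcdhgc4 alone held 53.9 ± 20.8%. Without it the other 4 C-type genes held 19.6 ± 15.99% of what was left and the gamma array 22.8%, against 49.5% for the alpha array and 27.8% for the beta array.

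Pcdhgc4 (ENSMUSG00000023036.10; mm10 chromosome 18, 37815079 to 37841873), the gamma C-type isoform known to be needed for neuronal survival and postnatal viability, was the most abundant clustered protocadherin. Its lowest level was 72.1 TPM in library 2, its median 140.3 TPM and its highest 243 TPM in library 9, and the mean was 149.3 ± 59.2 TPM (SD, n = 12). It had between 2388 and 12045 counts and was the only C-type gene with 50 or more counts in all 12 libraries. It was also steadier than most genes of like abundance: its CV was 0.396, and 82.8% of the 1052 annotated genes with a mean of 100 to 1000 TPM had a larger one. This was not particular to Pcdhgc4. For Pcdha4 the CV was 0.705, and 91.4% of the 5385 annotated genes with a mean of 10 to 100 TPM had a larger one. For Pcdhgc3, of the same range, 32.9% did.

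The Pcdhgc4 level rests on a short transcript that consists almost wholly of constant exons. Pcdhgc4-203 averaged 148 ± 60.0 TPM (SD, n = 12), which is 99.3% of the gene's level. It is 2272 bases long, of which 2119 (93.3%) belong also to other gamma genes and 153 do not, the highest shared portion among the 38 gamma transcripts. The transcript that encodes the whole protein, Pcdhgc4-201 with 2823 coding bases, averaged 0.05 ± 0.173 TPM and was above 0 in 1 library. Whether the reads given to Pcdhgc4-203 came from Pcdhgc4 or from the constant exons of other gamma mRNAs was not tested, since the tables do not show where along a transcript the reads fell. The same limit holds for the CV of Pcdhgc4.

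**Figure D2:**
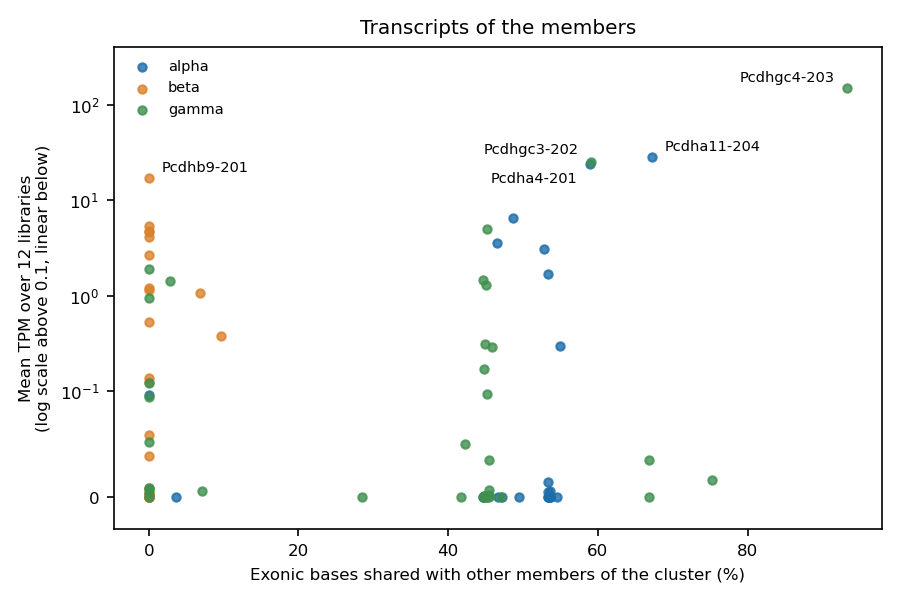
Each point is 1 of the 88 transcripts of the clustered protocadherins, with the percentage of its exonic bases that belong also to another gene of its array (x axis) against its mean TPM over 12 libraries (y axis, logarithmic above 0.1 and linear below). The gamma and alpha transcripts with the highest shared portions, Pcdhgc4-203 at 93.3% and Pcdha11-204 at 67.2%, were also the highest in mean TPM of their arrays.

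Pcdhgc3 (ENSMUSG00000102918.1; 37806364 to 37841873), a C-type gene known for promoting dendrite branching in cortical neurons, was either high or near 0. Its lowest level was 0, its median 0.38 TPM and its highest 100.6 TPM in library 10, with a mean of 25.1 ± 39.4 TPM (SD, n = 12). Libraries 1, 2, 6 and 10 held 39.1, 97.2, 59.3 and 100.6 TPM, library 5 held 3.88 TPM, and the other 7 lay between 0 and 0.46 TPM. In libraries 1, 2, 6 and 10 Pcdhgc4 stood at 131.6, 72.1, 167.8 and 87.2 TPM, so the libraries with high Pcdhgc3 held both low and high levels of it, and Pcdhgc3 was the higher of both genes in libraries 2 and 10. Nearly all of its level (99.6%) fell on Pcdhgc3-202, annotated as subject to nonsense-mediated decay, with 59.1% of its 3588 bases shared. Its full-length transcript averaged 0.0975 ± 0.338 TPM.

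An antisense gene, BC037039, overlaps 1559 exonic bases of Pcdhgc3. It stood at 68.5 TPM in library 6, between 2.83 and 4.8 TPM in libraries 4, 5 and 10, and at 0.05 TPM or less in the other 8. The strand of the libraries is not given in the sources used here, so reads of the 2 genes cannot be told apart in the overlap. Once BC037039 was added, the summed gamma counts were whole in 11 of 12 libraries in place of 9.

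The remaining C-type genes were found in few libraries. Pcdhac1 (37090013 to 37187657) held 34.0 TPM in library 8, 3.09 TPM in library 4 and 0 in the other 10 (median 0; mean 3.09 ± 9.77 TPM; SD, n = 12). Pcdhac2 (37143503 to 37187657), the alpha C-type gene known for the axonal tiling of serotonergic neurons, held 46.6 TPM in library 13, 31.4 TPM in library 9 and at most 0.09 TPM elsewhere (median 0; mean 6.51 ± 15.5 TPM). Pcdhgc5 (37819513 to 37841873) held 10.3 TPM in library 9, 6.99 TPM in library 12 and at most 0.61 TPM elsewhere (median 0; mean 1.52 ± 3.40 TPM). Pcdhac1 and Pcdhac2 reached 50 counts in 2 libraries each, so 4 of the 12 libraries had 1 of them and none had both. With so few libraries per gene, this does not show that the 2 genes exclude each other.

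For all 10 pairs of C-type genes the log2 ratio of TPM + 1 was taken in each library. Its mean was tested with an exact permutation of the signs (two-sided, over every sign pattern of the 12 libraries), whose smallest p is 0.000488, and adjusted by Benjamini-Hochberg over the 10. The 4 pairs that hold Pcdhgc4 passed the threshold of 0.05 and the other 6 did not. Pcdhgc4 was higher than Pcdhac1, Pcdhac2 and Pcdhgc5 in 12 of 12 libraries, each with an adjusted p of 0.00163 in the exact permutation test. The mean log2 ratio was -6.53 ± 1.34 for Pcdhac1 to Pcdhgc4, -6.23 ± 2.06 for Pcdhac2 to Pcdhgc4 and 6.48 ± 1.17 for Pcdhgc4 to Pcdhgc5 (SD, n = 12). Pcdhgc4 was higher than Pcdhgc3 in 10 of 12 libraries. The log2 ratio of Pcdhgc3 to Pcdhgc4 was -4.81 ± 3.28, with an adjusted p of 0.00488 in the exact permutation test.

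Among the 6 pairs without Pcdhgc4 the mean log2 ratio lay between -1.72 ± 3.70 (Pcdhac1 to Pcdhgc3) and 1.68 ± 3.50 (Pcdhgc3 to Pcdhgc5), with SDs larger than the means, and this does not show that the genes stood at equal levels. The full-length transcripts could not test the 4 calls. They were above 0 in 2 (Pcdhac1), 4 (Pcdhac2), 1 (Pcdhgc3), 1 (Pcdhgc4) and 3 (Pcdhgc5) libraries. Flipping the sign of a ratio of 0 changes nothing. No pair with Pcdhgc4 could therefore reach a p under 0.05 in the exact permutation test. With each gene represented by the transcript with the longest coding sequence, an alternative chosen after seeing the data, 0 of 10 pairs passed, 0 had an unadjusted exact permutation p under 0.05, and the 4 ratios changed sign, to 0.54 for Pcdhac1, 0.84 for Pcdhac2 and 0.04 for Pcdhgc3 to Pcdhgc4 and to -0.52 for Pcdhgc4 to Pcdhgc5.

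**Figure D3:**
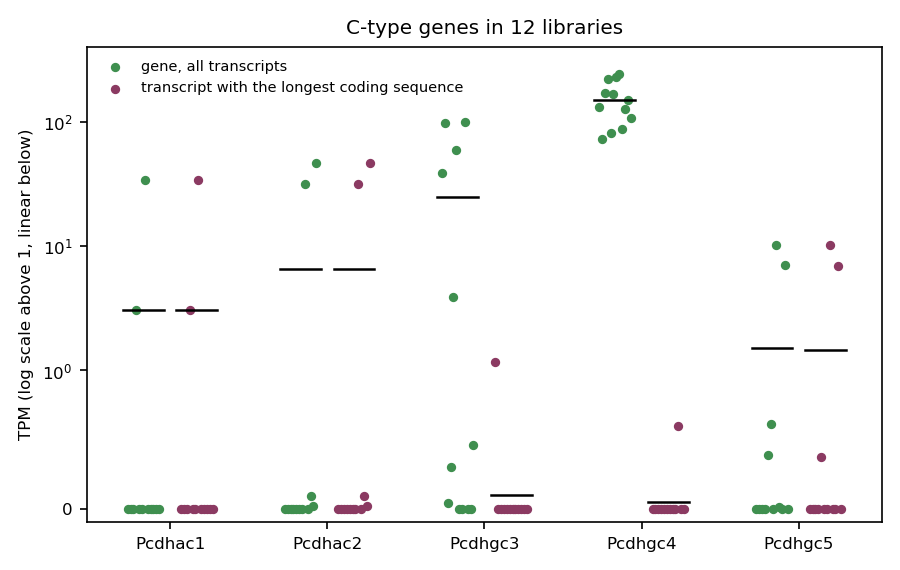
TPM of the 5 C-type genes in the 12 libraries (points; y axis logarithmic above 1 and linear below), for the gene over all its transcripts and for the transcript with the longest coding sequence alone, with means as black bars. Pcdhgc4 lies between 72.1 and 243 TPM as a gene, whereas its full-length transcript is above 0 in 1 library.

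Pcdha4 and Pcdha11 were the highest alpha genes by mean TPM, but not by counts: over the 12 libraries Pcdha4 held 21233 counts, Pcdhac2 8437, Pcdhac1 4603, Pcdha6 4366 and Pcdha11 3935. Pcdha4 (ENSMUSG00000104252.1; 36952648 to 37187661), a stochastic isoform, was the only stochastic gene with 50 or more counts in all 12 libraries. Its lowest level was 1.23 TPM in library 9, its median 25.8 TPM and its highest 56.0 TPM in library 6, with a mean of 23.8 ± 16.8 TPM (SD, n = 12). Libraries 2, 8 and 9 held 2.51, 1.98 and 1.23 TPM, and the other 9 lay between 14.96 and 56.0 TPM, with no value between. In library 2 the authors' deposited interval for Pcdha4 ran from 0.0555 to 4.96 TPM. In library 6 it ran from 52.1 to 55.7 TPM, which leaves out the deposited level of 55.97 TPM. All of the Pcdha4 level fell on Pcdha4-201, with 1920 coding bases. The transcript with the longest coding sequence, Pcdha4-202 with 2841 coding bases, averaged 0 TPM.

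Pcdha11 (37010712 to 37187657) had a mean of 28.3 ± 41.3 TPM (SD, n = 12), from 0 in libraries 4 and 5 through a median of 14.6 TPM to 119 TPM in library 2, and had 50 or more counts in 8 libraries. Its level fell almost wholly (99.6%) on Pcdha11-204, a transcript of 625 bases of which 67.2% are shared, the highest portion among the 24 alpha transcripts. Because TPM divides by length, this short transcript ranks above those genes in TPM while holding fewer reads. Pcdha11-202, with 2850 coding bases, averaged 0.005 ± 0.017 TPM. The Pcdha4 transcript that carried its level, Pcdha4-201, has 4129 bases, 59.0% of them shared, the next highest portion of the array. A further gene, Gm10544, overlaps 852 exonic bases listed under the symbol Pcdha11, on the other strand. Which identifier with that symbol it overlaps was not separated. Gm10544 stood at 40.3 TPM in library 3 and at 0.55 TPM or less elsewhere.

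Other alpha genes were found both in libraries with little Pcdha4 and in libraries with more of it. Library 2 held 119 TPM of Pcdha11 and 42.9 TPM of Pcdha6, which was at most 0.17 TPM elsewhere. Library 8 held 108 TPM of Pcdha11, 34.0 TPM of Pcdhac1 and 20.0 TPM of Pcdha2, which was 0 in the other 11. Library 9 held 31.4 TPM of Pcdhac2 and 26.5 TPM of Pcdha11. Library 13 held 25.3 TPM of Pcdha4 beside 46.6 TPM of Pcdhac2 and 14.8 TPM of Pcdha11, and libraries 1 and 6 held 29.7 and 23.7 TPM of Pcdha11. By TPM, Pcdha4 led the alpha array in 8 libraries, Pcdha11 in 2 and Pcdhac2 in 2. By counts, Pcdha6 held 4351 against 1392 for Pcdha11 in library 2, and Pcdhac1 held 4341 against 1364 in library 8. These libraries were picked out after their values were seen, and no test was made.

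Between 1 and 3 of the 12 alpha stochastic genes had 50 or more counts in a library (mean 2.08 ± 0.793, SD, n = 12). Of the 43346 annotated genes, between 5407 and 8645 did. Pcdha6 averaged 3.59 ± 12.4 TPM and Pcdha2 averaged 1.67 ± 5.78 TPM, each with 50 counts in 1 library. The lowest measured alpha gene was Pcdha7, at 0.0058 ± 0.0202 TPM with 6.2 counts in all. No count was given to 6 alpha identifiers: Pcdha1, Pcdha3, Pcdha8, Pcdha9, Pcdha12 and ENSMUSG00000007440.10.

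Beta genes share almost no exonic bases, and most of their counts were whole numbers. A few were not: in library 1 Pcdhb9 had 617.66 counts and Pcdhb3 had 1.34. Similarity of sequence between beta genes was not examined. A library held 3.08 ± 1.16 of the 22 beta genes at 50 or more counts (SD, n = 12), from 1 to 5, and 13 of the 22 reached that count in at least 1 library. Of the 43346 annotated genes, a library held between 5407 and 8645 at that count, so a low number per library was not particular to beta genes. Over the 66 pairs of libraries the median number of beta genes at 50 or more counts in both was 1, from 0 to 3. The same overlap was not computed for all annotated genes, so a small overlap cannot be called particular to beta genes. In all, 7 different beta genes led the array in at least 1 library each. Genes of like abundance were sporadic as well. The 5650 annotated genes with a mean of 1 to 10 TPM reached 50 counts in a median of 3 libraries. For the 2506 with a mean of 0.1 to 1 TPM the median was 1. Of the 22 beta genes, 8 had a mean of at least 1 TPM.

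Pcdhb9 (ENSMUSG00000051242.1; 37400855 to 37403909) was the highest beta gene and led in 4 libraries. Its lowest level was 0, in libraries 6 and 11, its median 5.92 TPM and its highest 79.1 TPM in library 2, with a mean of 17.1 ± 24.6 TPM (SD, n = 12) and 50 or more counts in 9 libraries. Pcdhb17 (37484795 to 37489454) reached 50 counts in 8 libraries at much lower levels. Libraries 9 and 10 held 29.7 and 17.6 TPM of it, and the other 10 held at most 1.78 TPM (median 0.96 TPM; mean 4.61 ± 9.29 TPM).

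Pcdhb18 averaged 5.33 ± 10.7 TPM (SD, n = 12), with 33.9, 15.1 and 14.7 TPM in libraries 10, 6 and 4 and at most 0.22 TPM elsewhere. Pcdhb6 averaged 4.74 ± 11.1 TPM, with 37.6 TPM in library 6, 14.0 TPM in library 1 and at most 3.06 TPM in the others. Pcdhb12 shows the extreme form of this pattern and is named here after its values were seen: it had 3453 counts (49.0 TPM) in library 8 and none in the other 11 libraries. At the low end stood Pcdhb3, with 1.3 counts in all and a mean of 0.0017 ± 0.0058 TPM. Pcdhb1, Pcdhb2 and Pcdhb8 had no count.

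**Figure D4:**
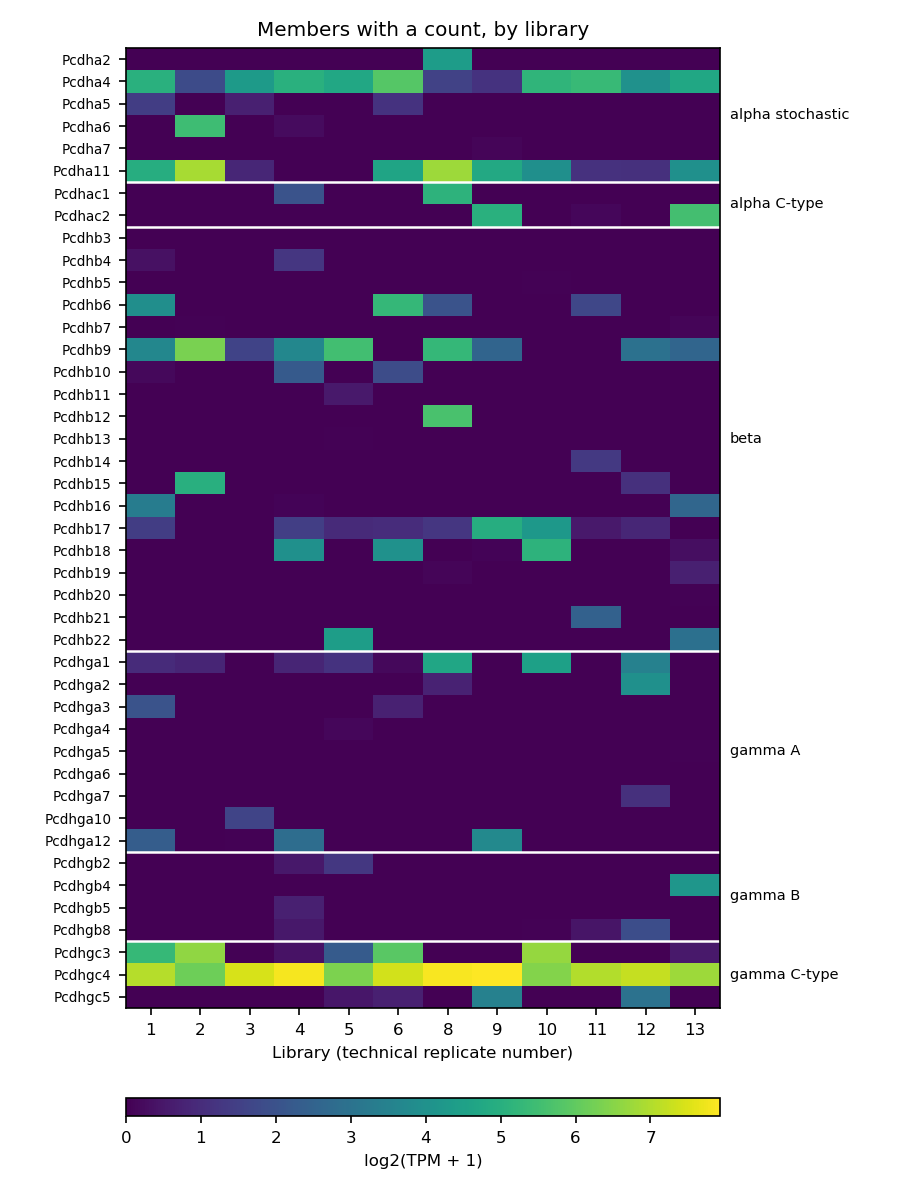
Level of the 43 clustered protocadherins with a count (rows, by family and position in the array) in the 12 libraries (columns), as log2(TPM + 1) in colour. Pcdhgc4 is high in every column and Pcdha4 in 9 of 12, while most other rows stand out in at most 3 columns.

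The stochastic gamma genes were lower still, at 8.81 ± 10.2 TPM summed over gamma A and 1.91 ± 4.79 TPM over gamma B (SD, n = 12). Pcdhga1 (37661793 to 37841873), the gene at the start of the array, had 50 or more counts in 7 libraries. It held 24.7, 21.8 and 10.2 TPM in libraries 8, 10 and 12 and at most 1.23 TPM in the other 9 (median 0.76 TPM; mean 5.04 ± 8.98 TPM). Pcdhga12 averaged 1.88 ± 3.85 TPM, with 12.3 TPM in library 9, and all of it fell on Pcdhga12-202, a retained-intron transcript. Pcdhga2 averaged 1.29 ± 4.25 TPM, with 14.8 TPM in library 12, and Pcdhga3 averaged 0.311 ± 0.889 TPM.

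The lowest measured gamma A gene was Pcdhga6, with 1.7 counts in all and 0.0008 ± 0.0029 TPM. Among gamma B genes Pcdhgb4 averaged 1.41 ± 4.86 TPM, nearly all from 16.8 TPM in library 13 and on a non-coding processed transcript. Pcdhgb8 averaged 0.291 ± 0.761 TPM, Pcdhgb2 averaged 0.157 ± 0.428 TPM and Pcdhgb5, the lowest measured, 0.0542 ± 0.181 TPM. Pcdhga8, Pcdhga9, Pcdhga11, Pcdhgb1, Pcdhgb6 and Pcdhgb7 had no count.

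Over all families, 32 of the 58 genes had 50 or more counts in at least 1 library, where 31.6% of all annotated genes did, and 2 of the 58 had them in every library, where 3.72% did. The 32 comprised all 5 C-type genes and 27 of the 53 stochastic genes, and of those 27, 12 reached 50 counts in 1 library only. A single library held 8.67 ± 2.06 such genes (SD, n = 12): library 3 held the fewest, 5, and library 1 the most, 12. Of all annotated genes, library 3 held 5477 and library 1 held 7775 at that count, and the part of this in the number of protocadherins was not tested. No library gave a count to 15 genes. For the 3 beta genes among them this allows up to 3 counts over all 12 libraries, which is 0.0137 CPM (counts scaled to a common library total), a limit that covers counting error only, since amplified reads with no molecular identifiers are not independent molecules. For the other 12, alpha and gamma genes, the 0 is an estimate made after shared reads were divided, so this limit does not apply: the authors' deposited interval for ENSMUSG00000007440.10, listed at 0, reached 0.366 TPM in library 1.

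Genes of like abundance were also detected in few libraries. The 16 members with a mean of 1 to 10 TPM had 50 or more counts in a median of 2 libraries, and the 5650 annotated genes of that range in a median of 3 (quartiles 2 and 5). At 10 to 100 TPM the median was 8.5 libraries for 4 members and 8 for 5385 genes, and at 0.1 to 1 TPM it was 1 for 9 members and 1 for 2506 genes. The median CV at 1 to 10 TPM was 2.55 for members and 2.28 for all genes, and at 10 to 100 TPM it was 1.45 and 1.30.

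**Figure D5:**
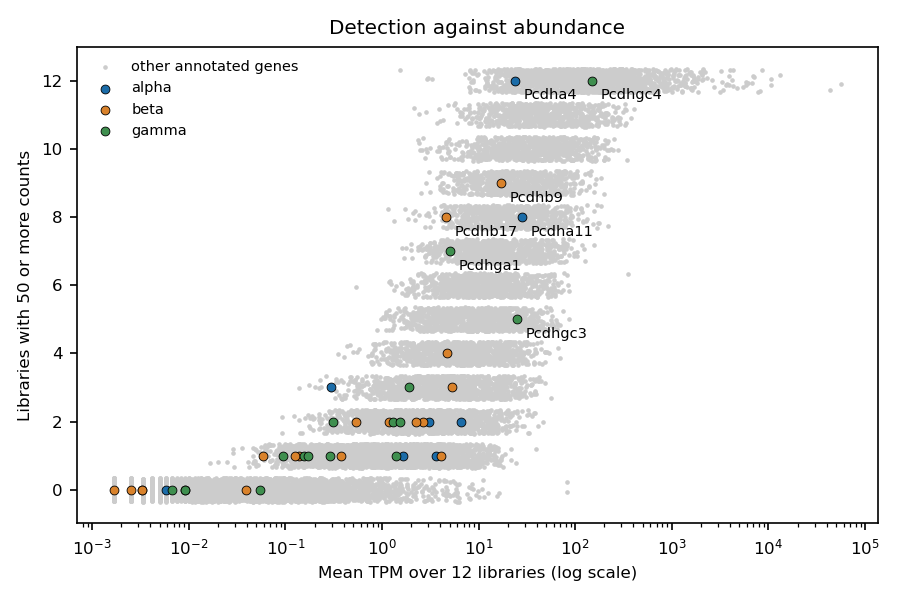
Number of libraries with 50 or more counts (y axis) against mean TPM over the 12 libraries (x axis, logarithmic) for the clustered protocadherins, coloured by array, over the other annotated genes in grey, which are scattered vertically within each row for visibility. The coloured points lie within the grey band; Pcdhgc3 reached 50 counts in 5 libraries at a mean of 25.1 TPM.

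Variation beyond that of genes of like abundance was tested with edgeR's quasi-likelihood fit on rounded counts over all annotated genes averaging 5 counts or more. Of 13899 genes tested 2 passed a Benjamini-Hochberg adjusted p of 0.05 (0.0144%), and of the 32 clustered protocadherins tested none did. At an unadjusted p under 0.05 the numbers were 95 genes and 1 member, and with DESeq2 size factors 139 genes and 1 member, again with 0 members called. That member was Pcdhgc3, with an unadjusted p of 0.016 and an adjusted p of 0.773 in an F test computed on edgeR's fit. In the same F test Pcdhgc4 had an adjusted p of 1 and Pcdha4 of 0.913. The test made few calls over all genes, and fewer genes had an unadjusted p under 0.05 than evenly spread p-values would give. Hence 0 calls do not show that the isoforms varied like other genes.

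The machinery and partners of these proteins were described from 4 lists. Of 16 genes for promoter choice and chromatin, 13 had a mean of at least 1 TPM. Of all annotated genes 28.1% did, and of the 58 members 21. None of the 16 had 50 counts in every library, where 3.72% of all annotated genes did. The highest were the cohesin subunit Smc1a at 51.9 ± 51.4 TPM (SD, n = 12), the cohesin release factor Wapl at 33.4 ± 29.4 TPM and the cohesin subunit Stag1 at 32.2 ± 36.1 TPM. The lowest was the de novo methyltransferase Dnmt3b, with a count in 1 library.

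Of 20 genes for cytoplasmic partners and proteolysis, 18 had a mean of at least 1 TPM and 4 had 50 counts in every library. Of all annotated genes 28.1% and 3.72% did. Psenen, a gamma-secretase subunit, was the highest at 233 ± 144 TPM (SD, n = 12). Next were Pdcd10, a binding partner of gamma protocadherins, at 139.5 ± 127 TPM and the kinase Fyn at 67.5 ± 47.7 TPM. Aph1a was the lowest measured, at 0.322 ± 1.09 TPM, and the kinase Ptk2b was listed at 0 in all 12 libraries.

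The 12 non-clustered protocadherins examined lie as single genes elsewhere in the genome. Of these, 7 had a mean of at least 1 TPM and 3 had 50 counts in every library. Of all annotated genes 28.1% and 3.72% did. Pcdh9 stood at 77.1 ± 48.0 TPM (SD, n = 12), Pcdh7 at 22.2 ± 22.1 TPM, Pcdh19 at 12.7 ± 24.8 TPM and Pcdh1, the lowest measured, at 0.173 ± 0.311 TPM. Pcdh8, Pcdh12 and Pcdh18 had no count. Of 10 other genes of homophilic adhesion, 6 had a mean of at least 1 TPM, with Cdh2 (N-cadherin) at 16.2 ± 16.7 TPM, Cdh7 at 6.41 ± 15.2 TPM, Cdh4 at 5.89 ± 7.36 TPM and Dscaml1 at 0.0025 ± 0.0087 TPM. Sdk1 had no count, and Cdh2 was the only one of them with 50 counts in every library.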

How the data were processed

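The 12 libraries were made by Smart-seq, per the labels' protocols. Per the deposited text files, reads were quantified on mm10 with GENCODE M4; which aligner, quantifier and strand setting were used is not given in the sources used here. Per the file headers, the gene and transcript tables hold expected counts (estimated read numbers, reads shared between features being divided) and TPM (computed by the authors over all features, spike-ins included), with the authors' interval and posterior mean. Symbols, exons and transcript classes came from GENCODE M21 on mm10; the lengths of all 88 member transcripts equalled the deposited ones. The 26248 features with numeric identifiers were left out.

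Detection means an expected count of 50 or more. Pairs were tested on log2(TPM + 1) with a pseudocount of 1 TPM. Variation was fitted in edgeR 4.0.16 (intercept only, TMM factors, glmQLFit, genes averaging 5 counts or more) on counts rounded to whole numbers, with DESeq2 1.42.0 size factors as an alternative. An upper-tail F test was computed from the deviances of that fit and is not a test that edgeR provides. A run of the test on simulated data was also made, and it is not used here as support for the test. Python 3.11.15, pandas 2.3.3 and scipy 1.17.1 served for the rest. Named genes are all C-type genes, the 4 highest and the lowest measured stochastic genes per family, those with 50 counts in at least 6 libraries, and the 3 highest, the lowest and those at 0 in each pathway list; other names were chosen after their values were seen. The members and lists were chosen with earlier results of these data known. Mouse chromosome 18 sequences are not reported here.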

Additional observations from a re-analysis of the deposited data

How the results depend on the processing

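Mean shares of the arrays and of C-type genes moved by less than 1 SD in CPM, from the transcript table, with posterior mean TPM and without any single library. Without Pcdhgc4, chosen after seeing the data, they moved to 49.46% alpha, 27.77% beta, 22.77% gamma and 19.58% C-type. At 100 counts instead of 50 the number of genes detected in every library fell to 1, while at 1, 5 and 10 counts and at 1 TPM it was within 1.5 times, as was the number detected in at least 1 library. The number of C-type pairs called stayed at 4 with a pseudocount of 0.1 or 10 TPM, in CPM, with posterior mean TPM, with TPM set to 0 under 50 counts and without any single library. It fell to 0 with the transcript with the longest coding sequence, where the log2 ratios were 0.5402 (Pcdhac1 to Pcdhgc4), 0.8389 (Pcdhac2 to Pcdhgc4), 0.0366 (Pcdhgc3 to Pcdhgc4) and -0.5219 (Pcdhgc4 to Pcdhgc5). That transcript of Pcdhgc4 was above 0 in 1 library. With so few values above 0, no pair with Pcdhgc4 could be called in that setting. The variation test called 0 genes with DESeq2 size factors, 0 with robust fitting, 13 with adjusted deviances (chosen after seeing the data) and 1 to 2 with single libraries left out, 1 without library 1; the cause was not tested, and 0 members were called in each. For Pcdhgc3 the adjusted p in the F test on edgeR's fit ran from 0.771 to 0.843 over these alternatives. No paired analysis was possible because there is 1 group. Depth and an RNA input equal to 1 cell per library limit what can be said of the beta genes with no count. Shared exons limit every alpha and gamma value.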
